A study of Mus musculus with 12 samples.

Results

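The genes described here encode proteins that build ribosomes in the nucleolus. The list names 46 mouse genes, and a row of the array counted for a gene when its annotation gave that gene's symbol and no other. Of the 46 listed genes, 42 had such a row and all 42 of these passed the filter on dim rows, out of 14079 genes tested and 22180 genes with a row of 1 symbol in the series. The other 4 were not analysed: the rows for Fbl, Tsr1 and Mrto4 are annotated to further genes as well, and no row with the symbol Npm3 was used here. For 5 genes with several rows, the row was chosen by its mean level over the 12 arrays, the highest being used, so these mean levels, from 5.04 to 8.65, are a description and not a result. The list was drawn up with earlier results on these arrays known, so its counts describe the arrays and are not independent support for any direction.

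Bone marrow-derived mouse macrophages, cultured with L929-conditioned medium, were measured on 12 Affymetrix Mouse Gene 2.1 ST arrays. The 4 groups, of 3 arrays each, were wild-type cells in saline, wild-type cells with R848 for 4 h, and cells of Rasgef1b_fl/fl_vav-icre mice, the knockout, in saline and with R848 for 4 h. R848 (resiquimod) is a synthetic agonist of the endosomal receptor TLR7. Rasgef1b encodes a nucleotide exchange factor that activates Ras-family proteins, and Vav-driven iCre acts in blood-forming cells and their descendants. Controls are labelled wild type, with no statement on floxed alleles or Cre. The sources used here give no ages or sexes and do not say whether replicates were separate animals or cultures, so the p-values reflect array-to-array spread that may be technical.

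Ribosome assembly starts with transcription of a long precursor rRNA by RNA polymerase I. Small nucleolar RNAs (snoRNAs) in complexes with proteins then guide the chemical modification of that precursor, box C/D complexes its methylation and box H/ACA complexes its pseudouridylation. The small-subunit processome folds and cleaves the part that becomes the 40S subunit, while a separate series of factors assembles the 60S subunit. Many of these genes are known targets of the transcription factor Myc, which binds the E-box CACGTG, and resting cells that are stimulated to grow often raise them together.

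Because the genes are often regulated together, their promoters were read for 2 short motifs. RefSeq windows (GRCm38.p6) of 300 bases, from 250 before to 50 after the start of each gene, were found for 40 of the 46 listed genes. The E-box CACGTG, which reads the same on both strands, was in the windows of 12 of the 40 genes (30%), against 8.09% of all 27025 genes with a window. CCGGAA, the core bound by ETS factors, was read on both strands and was in 18 of 40 (45%), against 16.7% of all genes. The 2 motifs were counted separately, with any overlap between them left in. These matches describe letters in a window and do not show binding. The 6 E-boxes of members whose array values are given below are printed here to show where the letters lie. CACGTG is in capitals, each sequence runs 5′ to 3′ on the gene's own strand, and all are from RefSeq on GRCm38.p6. Imp4 and Nop2 carry the E-box before the start and are shown as the 250 bases upstream, and the others carry it after the start and are shown as 30 bases around it.
Imp4, chr1:34439579-34439828, plus strand: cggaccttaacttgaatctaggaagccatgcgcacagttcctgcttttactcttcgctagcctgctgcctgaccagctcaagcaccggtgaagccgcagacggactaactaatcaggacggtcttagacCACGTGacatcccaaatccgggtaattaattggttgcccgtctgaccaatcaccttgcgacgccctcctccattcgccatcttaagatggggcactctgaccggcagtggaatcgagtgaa
Nop2, chr6:125131633-125131882, plus strand: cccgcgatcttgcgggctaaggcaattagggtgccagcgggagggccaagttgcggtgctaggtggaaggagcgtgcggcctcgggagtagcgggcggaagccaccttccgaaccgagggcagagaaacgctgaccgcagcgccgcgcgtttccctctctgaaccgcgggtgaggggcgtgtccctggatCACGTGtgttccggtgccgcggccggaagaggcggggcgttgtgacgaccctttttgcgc
Mybbp1a, chr11:72441347-72441376, plus strand: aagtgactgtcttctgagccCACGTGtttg
Utp20, chr10:88826765-88826794, minus strand: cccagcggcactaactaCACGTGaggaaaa
Ltv1, chr10:13193092-13193121, minus strand: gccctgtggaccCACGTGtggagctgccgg
Mdn1, chr4:32657139-32657168, plus strand: caacgtgaattccttcacCACGTGtgtgtc
The E-box begins 121 bases before the start in Imp4 and 60 before it in Nop2. Among the 37 measured genes with a window, 9 of 11 with an E-box and 14 of 26 without one were higher with R848 in both genotypes. These calls are by the test described next, and the difference between 9 of 11 and 14 of 26 was not tested. Of all tested genes 14.6% were higher in wild type and 15.6% in the knockout. The share higher in both, with or without an E-box, was not counted over all genes.

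Macrophage markers were high on every array, with a mean over 9 of 9 markers between 9.93 and 10.24, while 0 of the T cell, mast cell and erythroid markers listed were bright enough to test. Of the markers listed for other cell types, 3 of 6 for fibroblasts, 2 of 3 for megakaryocytes, 1 of 5 for B cells and 1 of 3 for NK cells were bright enough. The neutrophil marker S100a9 was 0.30 higher in the knockout averaged over treatments (adjusted p = 0.0375 by limma), and 7 of 9 neutrophil markers were too dim to test. The other of the 2 tested neutrophil markers differed by 0.02 in that average (adjusted p = 0.902 by limma) and by -0.03 with R848. The mean of the dendritic cell markers was a little higher in the knockout. Over 5 of them the array means in saline were 5.19 to 5.37 in wild type and 5.40 to 5.52 in the knockout, and with R848 5.28 to 5.29 and 5.34 to 5.37, so the genotypes did not overlap. Of the 4 tested, 0 were called in saline by limma (2 higher at an unadjusted p under 0.05), with Cd209a the largest at 0.52 (adjusted p = 0.0716). In each treatment 3 of these 4 were above and 1 below the wild-type mean, the lowest at -0.12 in saline and -0.03 with R848. With R848, 0 of the 4 passed an unadjusted p of 0.05 by limma. All 9 macrophage markers were above their wild-type mean in the knockout in saline, with a median of 0.11 and 0 called by limma (1 at an unadjusted p under 0.05). In bulk RNA, fewer cells of a type and less RNA per cell cannot be told apart. Arrays of the same group correlated at 0.991 to 0.996 over all tested genes. Rasgef1b itself read 9.03, 9.19 and 9.14 in wild type in saline and 8.63, 7.88 and 8.72 in the knockout, and with R848 it read 9.84, 9.84 and 9.69 in wild type and 9.45, 8.60 and 9.36 in the knockout. It was lower in all knockout arrays of each treatment, by 0.68 averaged over treatments (SE 0.15, adjusted p = 0.036 by limma), with knockout replicate 2 the lowest in both treatments. Whether the probes of that row lie in the deleted part is not known here, so this row checks the labels in part.

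R848 raised most of the ribosome assembly genes in wild-type cells. All changes below are differences of group means on the log2 scale, where 1 is a factor of 2, and a gene was called where limma's p, adjusted by the Benjamini-Hochberg method over the 14079 genes, was under 0.05. In wild type, 27 of the 42 genes rose and 1, Rrp1b, fell, while 14.6% of all tested genes rose and 23.6% fell. The median change of the 42 was 0.33, with a range from -0.30 to 1.59, and the median over all tested genes was -0.02. The 3 R848 arrays lay above the 3 saline arrays for 31 of the 42 genes and below them for 2, against 19.5% and 28.6% of all tested genes.

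The knockout showed a response of the same kind. There 26 of the 42 genes rose and 2, Rrp1b and Wdr12, fell, while 15.6% of all tested genes rose and 26% fell. The median was 0.39, with a range from -0.25 to 1.69, beside -0.03 over all tested genes, and the groups were apart upwards for 27 genes and downwards for 2, against 19.6% and 29.3% of all tested genes. In both genotypes 25 genes rose, and the share of all tested genes that did so was not counted. Dkc1 and Nip7, a factor of late 60S assembly, passed in wild type and not in the knockout (Nip7 passed there too with the replicate block, adjusted p = 0.0324, limma), Nolc1, a chaperone of snoRNA complexes, passed in the knockout and not in wild type, and none of these 3 passed the test of the difference between the responses. Neither genotype gave a call for 12 genes, among them Ncl and Npm1, the abundant nucleolar proteins nucleolin and nucleophosmin. Scaling the arrays to a common median moved the median of all genes with R848 to 0.11 in wild type and 0.12 in the knockout. The split of calls over all tested genes turned with it, from 2062 higher and 3325 lower to 3821 and 2319 in wild type and from 2193 and 3665 to 4402 and 2516 in the knockout (2613 and 2773, and 2900 and 2972, after cyclic loess). Of the 42 genes, 32 rose in each genotype after that scaling, and 32 and 31 after cyclic loess. With the common median 41 of 42 members were above 0 in wild type and 40 in the knockout, and Rrp1b and Wdr12, still below their saline mean, no longer passed.

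**Figure D1:**
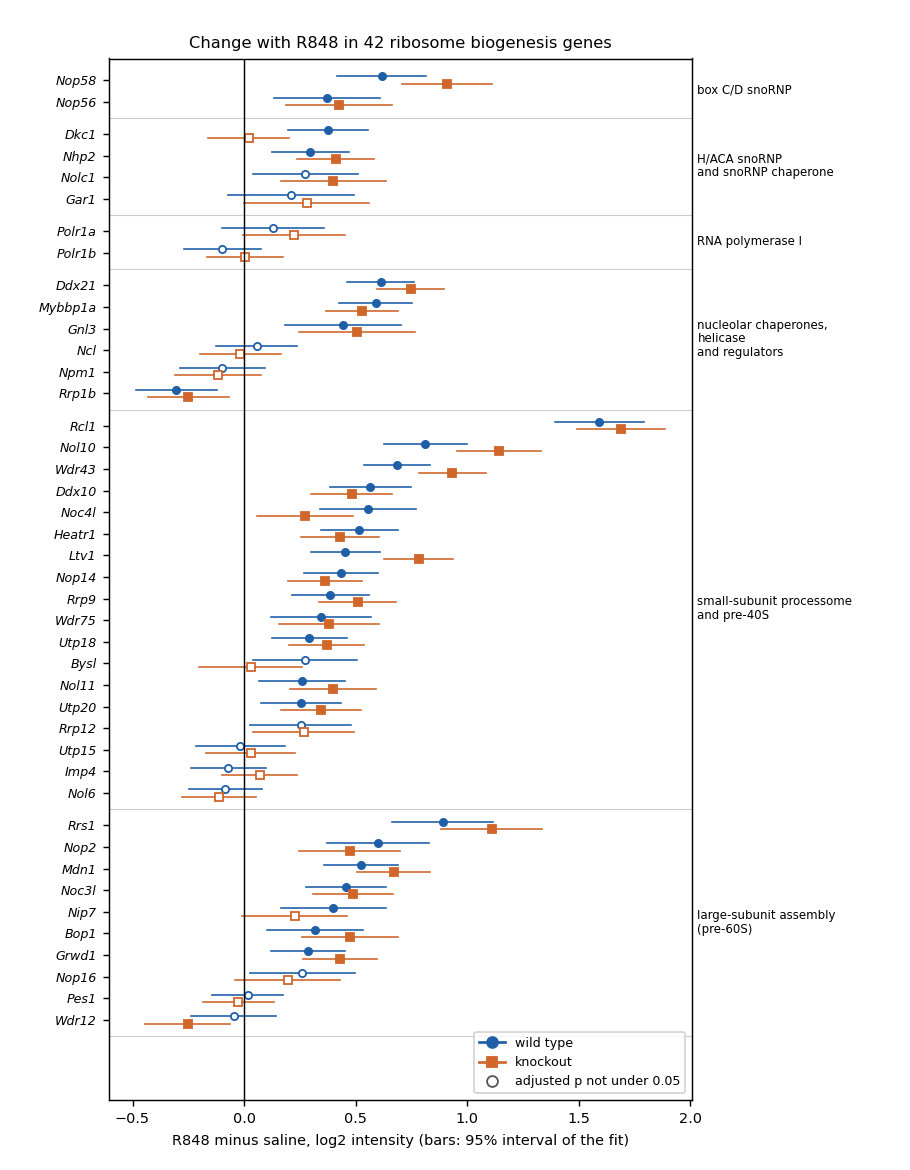
Change with R848 (log2, horizontal axis) of each of the 42 genes, by role, in wild type (circles) and knockout (squares), with bars for the 95% interval of the fit and open symbols where adjusted p was not under 0.05. Most filled symbols lie to the right of 0 in both genotypes, with Rcl1 farthest right at 1.59 and 1.69, and Rrp1b is filled on the left in both.

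Both measured box C/D proteins rose with R848 and both were lower in the knockout averaged over treatments, on the row used for each. Nop58, a core protein of these complexes (GRCm38.p6 chr1:59684961-59711510), read 7.95, 7.90 and 8.06 in wild type in saline and 8.58, 8.68 and 8.50 with R848. In the knockout it read 7.13, 7.42 and 7.42 in saline and 8.23, 8.13 and 8.34 with R848. Each of the 4 groups was thus apart from the others, in the order knockout saline, wild-type saline, knockout R848 and wild-type R848. The change with R848 was 0.62 in wild type and 0.91 in the knockout (SE 0.09 for both), and the knockout was 0.65 lower in saline, or 1.57-fold (adjusted p = 0.01001), and 0.35 lower with R848 (adjusted p = 0.234, limma).

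Nop56, its partner in the same complexes, showed smaller differences with more spread. In wild type it read 8.40, 8.43 and 8.63 in saline and 8.69, 9.01 and 8.88 with R848. In the knockout the saline arrays read 7.97, 8.03 and 8.32 and the R848 arrays 8.53, 8.41 and 8.66. The knockout arrays lay below the wild-type arrays within each treatment, and the difference averaged over treatments was -0.35 (SE 0.08, adjusted p = 0.0362, limma). Another row of Nop56, with a mean of 6.03, gave -0.07 for the same difference and changes with R848 of 0.23 and 0.26 that were not called (adjusted p = 0.103 and 0.0573, limma). One more row, close to the dim limit at a mean of 4.54, gave 0.27 in wild type and -0.29 in the knockout, so the rows of this gene disagree. The averaged call was lost on leaving out any of 8 of the 12 single arrays (adjusted p up to 0.107) and under both other scalings.

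Among the H/ACA proteins, Dkc1 was the one gene of the list called between genotypes with R848. It encodes dyskerin, the pseudouridine synthase of these complexes, which also belongs to telomerase (chrX:75095854-75109776). In wild type it read 6.13, 6.20 and 6.25 in saline and 6.67, 6.52 and 6.52 with R848. In the knockout it read 5.89, 5.85 and 5.88 in saline and 5.84, 5.77 and 6.07 with R848. Wild-type arrays with R848 were the highest of all, and the knockout arrays of both treatments overlapped each other below the wild-type saline arrays. Thus Dkc1 rose by 0.38 in wild type (SE 0.08, adjusted p = 0.00217) and changed by 0.02 in the knockout (95% interval -0.16 to 0.20, adjusted p = 0.879). The knockout was 0.68 lower with R848, or 1.60-fold (adjusted p = 0.00229), a call kept with each of the 12 arrays left out (adjusted p 0.000852 to 0.0155). In saline the difference was -0.32 (adjusted p = 0.123). The difference between the 2 responses was -0.36 (95% interval -0.61 to -0.10) and was not called (adjusted p = 0.965, limma).

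Nhp2, a small core protein of H/ACA complexes, rose with R848 in both genotypes. It read 7.10, 7.01 and 7.06 in wild type in saline, 7.42, 7.34 and 7.30 with R848, 6.70, 6.62 and 6.85 in the knockout in saline and 7.17, 7.02 and 7.21 with R848. The R848 arrays were above the saline arrays in each genotype, and the knockout was 0.28 lower averaged over treatments (SE 0.06, adjusted p = 0.0267, limma). That call was lost on leaving out any of 7 of the 12 single arrays (adjusted p up to 0.0698). Gar1, another core protein, changed by 0.21 and 0.28 with R848 and was not called.

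The catalytic subunits of RNA polymerase I did not pass the test with R848 in the fit of all 12 arrays. Polr1a, the largest subunit, read 7.36, 7.31 and 7.23 in wild type in saline and 7.40, 7.52 and 7.37 with R848, where the R848 arrays lay just above the saline arrays. The fitted change was 0.13 (95% interval -0.10 to 0.36). In the knockout it read 6.92, 6.89 and 7.19 in saline and 7.19, 7.03 and 7.45 with R848, a change of 0.22 (95% interval -0.01 to 0.45) with overlap. Each same-numbered pair of knockout arrays rose, and a fit of the knockout arrays with the replicate number as a block called it (adjusted p = 0.0416, limma). Polr1b, the second largest subunit, read 5.82, 5.80 and 5.71 in wild type in saline and 5.62, 5.77 and 5.65 with R848, and 5.55, 5.56 and 5.58, then 5.52, 5.46 and 5.72, in the knockout. Its groups overlapped with R848 in both genotypes, at changes of -0.10 and 0.00. In saline the knockout arrays of both subunits lay below the wild-type arrays, by 0.30 and 0.21, and neither passed.

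The nucleolar chaperones and regulators split into risers, genes that did not pass and a gene that fell. Ddx21, an RNA helicase that links transcription by RNA polymerases I and II with rRNA processing, read 7.61, 7.56 and 7.57 in wild type in saline and 8.21, 8.25 and 8.12 with R848. In the knockout it read 7.22, 7.25 and 7.26 in saline and 8.04, 7.89 and 8.04 with R848. The groups did not overlap, the changes with R848 were 0.61 and 0.75, and the knockout was 0.27 lower averaged over treatments (SE 0.05, adjusted p = 0.018, limma). A dimmer second row of Ddx21 gave 0.36 and 0.28 with R848, still called (adjusted p = 0.00994 and 0.0366), and -0.07 between genotypes (adjusted p = 0.668), and without wild-type R848 replicate 2 the adjusted p of the main row was 0.0553.

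Mybbp1a, a nucleolar protein that restrains rRNA synthesis, read 8.23, 8.14 and 8.09 in wild type in saline and 8.77, 8.78 and 8.68 with R848. The knockout read 7.87, 7.97 and 8.05 in saline and 8.47, 8.43 and 8.58 with R848. It rose in both genotypes, by 0.59 and 0.53, and the knockout difference averaged over treatments, -0.22, did not pass (adjusted p = 0.0545, limma). Gnl3, the GTPase nucleostemin, rose by 0.44 and 0.51. Ncl and Npm1 changed by 0.06 and -0.10 in wild type, with no call.

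Rrp1b, a nucleolar factor that also regulates transcription and splicing, was the one gene that fell in both genotypes. It read 5.41, 5.29 and 5.27 in wild type in saline and 5.05, 5.13 and 4.88 with R848. The knockout read 5.03, 4.99 and 5.07 in saline and 4.85, 4.64 and 4.85 with R848. The R848 arrays lay below the saline arrays in each genotype, by 0.30 in wild type and 0.25 in the knockout (SE 0.09 for both, adjusted p = 0.0103 and 0.0285, limma). Without wild-type R848 replicate 3 the first call was lost (adjusted p = 0.062), and without knockout saline replicate 1 or 3 or knockout R848 replicate 2 the second was lost (adjusted p up to 0.131). It was also 0.27 lower in the knockout averaged over treatments (adjusted p = 0.0382), a call lost without any of 10 of the 12 single arrays (adjusted p up to 0.114).

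The small-subunit group included Rcl1, the gene with the largest change with R848 in both genotypes. Of its 18 measured genes, 13 rose in wild type and 13 in the knockout, and 0 fell in either. Of all tested genes 14.6% rose and 23.6% fell in wild type, and 15.6% rose and 26% fell in the knockout. Rcl1, which takes part in the early cleavage of the precursor rRNA, read 5.64, 5.59 and 5.72 in wild type in saline and 7.09, 7.38 and 7.26 with R848. The knockout read 5.43, 5.60 and 5.65 in saline and 7.17, 7.38 and 7.20 with R848. The genotypes overlapped in each treatment, and R848 raised Rcl1 by 1.59 in wild type, or 3.02-fold, and by 1.69 in the knockout, or 3.23-fold (SE 0.09 for both, adjusted p = 3.13e-09 and 1.44e-09, limma). Averaged over treatments its genotype difference was -0.04 (95% interval -0.18 to 0.10), the one closest to 0 in the list.

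Nol10, a component of the processome, rose by 0.81 in wild type and 1.14 in the knockout. It read 6.33, 6.45 and 6.34 in wild type in saline and 7.26, 7.17 and 7.13 with R848, and 5.97, 5.82 and 5.99, then 7.07, 6.91 and 7.23, in the knockout. The genotypes were apart in saline, by 0.45 (adjusted p = 0.0481), and overlapped with R848, where the difference was -0.12 (adjusted p = 0.768). The difference between the responses, 0.33 (95% interval 0.06 to 0.60), was not called (adjusted p = 0.965, limma).

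Ltv1, an export and maturation factor of pre-40S particles, had a like pattern with less spread. It read 7.17, 7.16 and 7.31 in wild type in saline and 7.63, 7.71 and 7.66 with R848. The knockout read 6.79, 6.71 and 6.71 in saline and 7.56, 7.43 and 7.57 with R848. The groups did not overlap. With R848 Ltv1 rose by 0.45 in wild type and 0.78 in the knockout. The knockout was 0.48 lower in saline (adjusted p = 0.0107) and 0.15 lower with R848 (adjusted p = 0.599). The difference between the responses was 0.33 (95% interval 0.11 to 0.55) and was not called (adjusted p = 0.965, limma).

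Heatr1 and Utp20 are large scaffold proteins of the processome. Heatr1 read 7.18, 6.98 and 6.97 in wild type in saline and 7.60, 7.54 and 7.54 with R848, and 6.68, 6.87 and 6.79, then 7.30, 7.16 and 7.17, in the knockout. Utp20 read 6.70, 6.68 and 6.57 in wild type in saline and 7.02, 6.88 and 6.82 with R848, and 6.28, 6.41 and 6.23, then 6.74, 6.53 and 6.68, in the knockout. For both genes the knockout arrays lay below the wild-type arrays of the same treatment, by 0.31 and 0.30 averaged over treatments (adjusted p = 0.0187 and 0.0238, limma). Both rose with R848 in both genotypes. The averaged call of Heatr1 was lost without wild-type R848 replicate 2 or knockout R848 replicate 2 (adjusted p up to 0.0514) and that of Utp20 without wild-type R848 replicate 1 or 2 or knockout R848 replicate 2 (adjusted p up to 0.0619).

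Imp4, a processome protein that helps the U3 snoRNA pair with the precursor, did not respond to a degree that passed. It read 8.80, 8.66 and 8.64 in wild type in saline and 8.62, 8.71 and 8.56 with R848, and 8.30, 8.47 and 8.39, then 8.48, 8.37 and 8.52, in the knockout. Saline and R848 arrays overlapped in both genotypes, while the knockout arrays lay below the wild-type arrays in each treatment, with an averaged difference of -0.24 (adjusted p = 0.0395, limma). That call was lost with any 1 of the 12 arrays left out (adjusted p 0.0521 to 0.119). Wdr43, a further processome protein, rose by 0.69 and 0.93, and Nol6, Utp15, Rrp12 and Bysl had no call in either genotype, except that Rrp12 passed in the knockout with the replicate block (0.27, adjusted p = 0.0458, limma). A second row of Nol11 gave 0.09 and 0.17 with R848, not called, where the row used gave 0.26 and 0.40. One more row of Nol11, dimmer at a mean of 4.83, gave -0.11 and 0.08 with R848 and 0.10 between genotypes averaged over treatments. The rows of Nol11 thus disagree.

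In the large-subunit group, 7 of 10 measured genes rose in wild type, and 6 rose and 1 fell in the knockout. The shares over all tested genes were 14.6% rising and 23.6% falling in wild type, and 15.6% and 26% in the knockout. Rrs1, which brings the 5S particle into the growing subunit, read 5.84, 5.89 and 6.06 in wild type in saline and 6.77, 6.93 and 6.76 with R848. The knockout read 5.42, 5.74 and 5.84 in saline and 6.79, 6.67 and 6.87 with R848. Saline and R848 arrays were apart and the genotypes overlapped, with changes of 0.89 and 1.11 (SE 0.11 for both). A second row of Rrs1 gave 1.05 and 0.70.

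Nop2, which methylates 28S rRNA, read 7.94, 7.83 and 7.70 in wild type in saline and 8.49, 8.54 and 8.24 with R848. In the knockout it read 7.64, 7.63 and 7.65 in saline and 8.17, 7.89 and 8.28 with R848. It rose by 0.60 and 0.47, and its genotype differences did not pass. Mdn1, a very large ATPase that strips assembly factors from pre-60S particles, read 6.36, 6.28 and 6.21 in wild type in saline and 6.91, 6.83 and 6.68 with R848. Its knockout arrays read 5.84, 5.86 and 5.91 in saline and 6.60, 6.54 and 6.48 with R848. These 4 groups did not overlap: R848 raised Mdn1 by 0.52 and 0.67, and the knockout was 0.41 lower in saline (adjusted p = 0.0414) and 0.34 lower averaged over treatments (SE 0.05, adjusted p = 0.0079, limma). Nop16 and Pes1 had no call with R848 in the fit without a block, and Wdr12, the partner of Pes1 and Bop1, changed by -0.05 in wild type and fell by 0.25 in the knockout (adjusted p = 0.0341). The Wdr12 call was lost without knockout saline replicate 1 or 3 or knockout R848 replicate 1 or 3 (adjusted p up to 0.124).

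**Figure D2:**
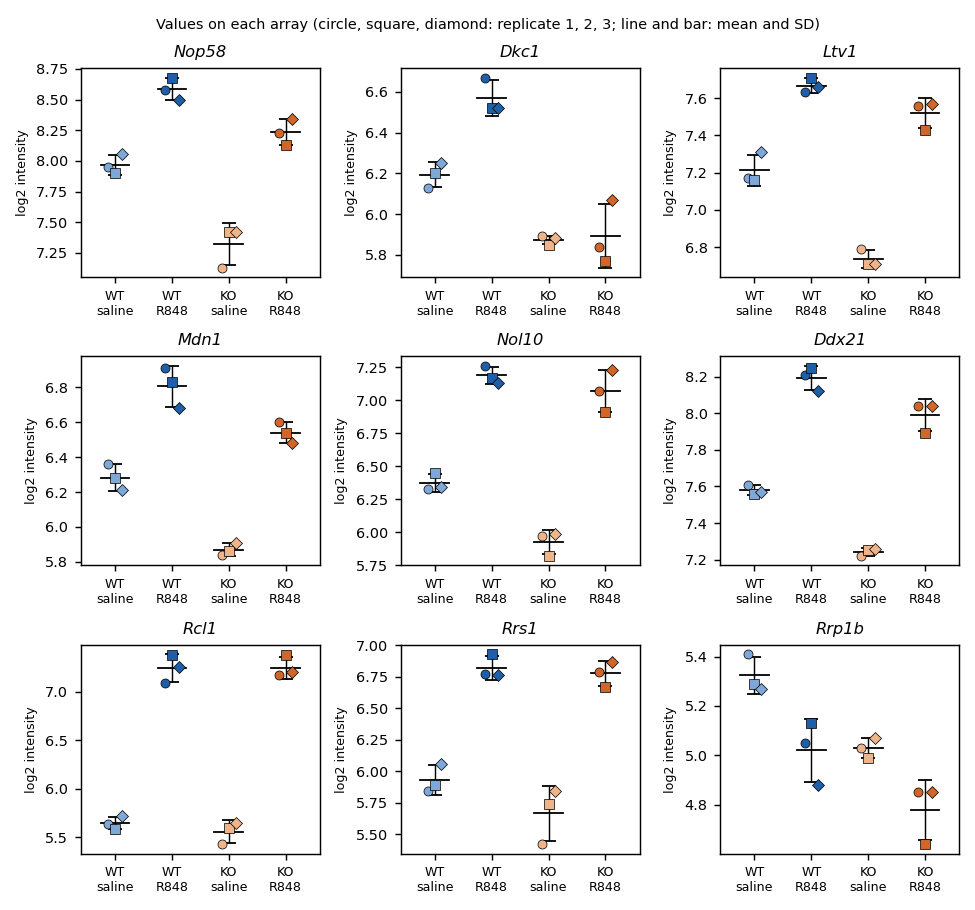
Log2 intensity on every array of 9 genes described in the text, with a symbol per array in each of the 4 groups, a line at the group mean and bars of 1 SD. Rcl1 lies near 5.6 in saline and 7.2 with R848 in both genotypes, while Dkc1 with R848 lies at 6.52 to 6.67 in wild type and 5.77 to 6.07 in the knockout.

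A few of the calls with R848 depended on single arrays. In wild type those of Bop1 (lost without saline replicate 2 or 3 or R848 replicate 3, adjusted p up to 0.0949), Nol11 (without saline replicate 2 or R848 replicate 1 or 2, up to 0.166) and Nop56 (without saline replicate 1 or 2 or R848 replicate 2, up to 0.0765) were such calls. The same held for Utp20 (without saline replicate 3 or R848 replicate 1, up to 0.11) and Wdr75 (without saline replicate 2 or R848 replicate 2 or 3, up to 0.0918). In the knockout Noc4l was lost without wild-type R848 replicate 2 or 3, knockout saline replicate 1 or 2 or knockout R848 replicate 3 (adjusted p up to 0.207). With the replicate number as a block, Rrp12 and Nip7 also rose in the knockout, as given above, Nop16 also rose in wild type (0.26, adjusted p = 0.0318, limma), and 0 calls were lost. Residuals of same-numbered saline and R848 arrays correlated at 0.272, 0.172 and 0.275 in the knockout and at 0.252, -0.0568 and 0.23 in wild type. Only the knockout passed a limit of 0.1 in every pair, as replicate 2 of wild type did not. A fit of the knockout arrays alone with the same block gave Polr1a and Nip7 (adjusted p = 0.0461, limma) as further genes that rose.

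Levels in the knockout were below those of wild type for nearly every gene of the list, by amounts that mostly did not pass the test gene by gene. In saline 41 of 42 differences were below 0, with a median of -0.26 and a range from -0.65 to 0.01, against 54.2% below 0 and a median of -0.01 over all tested genes. The knockout was lower for 4 genes, Nop58, Ltv1, Mdn1 and Nol10, and higher for 0, while 0.192% of all tested genes were lower and 0.142% higher. At an unadjusted p under 0.05 by limma, 31 of the 42 were lower and 0 higher, beside 12.6% of all tested genes in either direction. The 3 knockout arrays lay below the 3 wild-type arrays for 30 of the 42, against 9.43% of all tested genes. After scaling to a common median, and after cyclic loess, 40 of 42 were below 0 and 2, Nop58 and Ltv1, were called.

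The 4 calls in saline leaned on the arrays and on the spread shared by all 12. A fit of the 6 arrays compared called 0 of the 42 (28 lower at an unadjusted p under 0.05), with adjusted p = 0.0722 for Nop58 and 0.0801 for Ltv1 by limma. Without wild-type saline replicate 3 the count was 0 (24 at an unadjusted p under 0.05), with adjusted p = 0.0543 for Nop58, and without knockout saline replicate 2 it was 1. The count was 2 without wild-type saline replicate 1 or 2, knockout saline replicate 1 or wild-type R848 replicate 2. Ltv1 was lost without wild-type saline replicate 3 or knockout saline replicate 2 (adjusted p up to 0.0768), Mdn1 without any of 9 of the 12 single arrays (up to 0.146) and Nol10 without any of 10 (up to 0.18).

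With R848, 41 of 42 differences were again below 0, with a median of -0.21 and a range from -0.68 to 0.01, against 58.2% below 0 and a median of -0.02 over all tested genes. Dkc1 was the 1 gene called, as lower, where 0.0781% of all tested genes were lower and 0.0568% higher. At an unadjusted p under 0.05 by limma, 26 of the 42 were lower and 0 higher, beside 8.74% of all tested genes in either direction. The groups were apart downwards for 24 of the 42, against 8.46% of all tested genes. The number below 0 was 39 after scaling to a common median and 38 after cyclic loess. Rcl1 and Wdr43 had differences of 0.01 and 0.00 with R848.

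Averaged over treatments, the knockout was lower for 12 of the 42 genes and higher for 0, where 1.01% of all tested genes were lower and 0.774% higher. The 12 were Nop58 (-0.50, adjusted p = 0.00235), Dkc1 (-0.50, adjusted p = 0.000998), Mdn1, Ltv1, Ddx21, Heatr1, Utp20, Nhp2, Nol10, Nop56, Rrp1b and Imp4. All 42 differences were below 0, with a median of -0.24, beside 57% below 0 and a median of -0.02 over all tested genes. The number below 0 was 42 after scaling to a common median and 40 after cyclic loess. On second rows it was 41, with Nol11 at 0.00. Over all tested genes the calls were 109 higher and 142 lower. They became 177 higher and 92 lower with the common median, and 187 and 87 after cyclic loess. Scaling to a common median lost the calls of Nop56 (adjusted p = 0.0514), Rrp1b (0.0579) and Imp4 (0.0764), and cyclic loess lost those of Nop56 (0.0513), Nhp2 (0.055), Nol10 (0.0567) and Imp4 (0.0995). Nop58, Dkc1, Ltv1 and Mdn1 were called with each of the 12 arrays left out, and the count was 4 without wild-type R848 replicate 2, 5 without knockout R848 replicate 2 and 7 without wild-type saline replicate 3, knockout saline replicate 1 or knockout saline replicate 2. The averaged call of Nol10 was lost without any of 9 single arrays (adjusted p up to 0.0889). With the replicate number as a block, Npm1, Gnl3, Utp15 and Bop1 were called as well, for 16 in all. That block matches wild-type and knockout arrays by number, and residuals of replicate 2 did not correlate between genotypes (-0.12 in saline and -0.00393 with R848). These further calls therefore rest on a match that the arrays did not bear out.

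**Figure D3:**
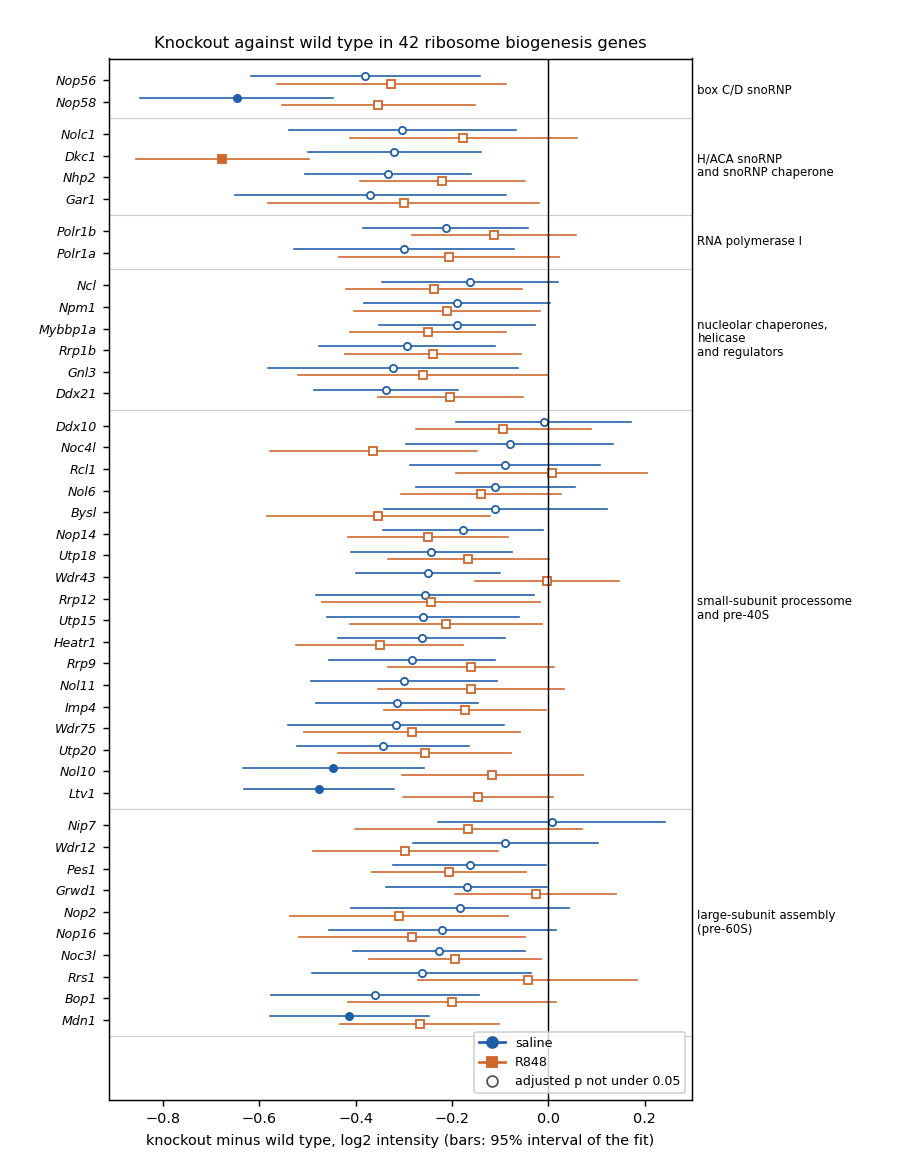
Knockout minus wild type (log2, horizontal axis) for each of the 42 genes, by role, in saline (circles) and with R848 (squares), with bars for the 95% interval of the fit and open symbols where adjusted p was not under 0.05. Nearly every symbol lies left of 0, and the filled ones are Nop58, Ltv1, Mdn1 and Nol10 in saline and Dkc1 with R848.

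The size of the R848 response was not shown to differ between genotypes for any gene of the list. The test of the difference between the responses called 0 of 42 by limma (adjusted p from 0.965 to 0.996), where 0.0142% of all tested genes were called in either direction. At an unadjusted p under 0.05 it gave 5 of 42, with 4 larger and 1 smaller in the knockout, beside 4.93% of all tested genes. The median difference was 0.06, between -0.36 for Dkc1 and 0.33 for Nol10 and Ltv1. Wild type with R848 had the highest group mean and the knockout in saline the lowest for 31 of the 42 genes (73.8%), an order that 13.8% of all tested genes had.

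Averaged over the 42 genes, each array gave a like picture. Wild-type arrays had means of 7.004, 6.951 and 7.001 in saline and 7.33, 7.38 and 7.29 with R848. Knockout arrays had means of 6.70, 6.69 and 6.79 in saline and 7.13, 7.04 and 7.18 with R848. No 2 groups overlapped in this mean. The knockout comparison with R848 and that in saline use the same arrays as the R848 comparisons, so these values stand side by side and are not separate support for each other.

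Other genes of ribosome assembly also rose in part, with smaller medians. Their lists were drawn up by known role, with earlier results of these data known, and are not independent support. Among 37 further small-subunit genes, 14 rose and 1 fell in wild type with R848, with a median of 0.15, and Utp11 (0.79), Riok2 (0.55) and Esf1 (0.51) changed most. Among 49 further large-subunit genes, 22 rose and 1 fell, with a median of 0.19, led by Sdad1 (0.91), Ccdc86 (0.90) and Eif6 (0.83). These are read against 14.6% of all tested genes that rose and 23.6% that fell. In the knockout the counts were 14 and 1 for the first list and 23 and 2 for the second, beside 15.6% and 26% of all tested genes.

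The remaining lists held few genes that rose. Their counts stand beside 14.6% of all tested genes that rose and 23.6% that fell in wild type, and 15.6% and 26% in the knockout. Among 12 further proteins of snoRNA complexes 1 rose, Nufip1 (0.21), and 0 fell. Of 16 further subunits and factors of RNA polymerase I, Rrn3, an initiation factor, rose by 0.41 and Polr2e, a subunit shared by all polymerases, fell by 0.44. Of 13 genes of the nuclear exosome and rRNA nucleases 2 rose, Mphosph6 (0.43) and Mtrex (0.27), and Exosc7 fell by 0.35. Among 54 cytosolic ribosomal proteins 3 rose in wild type, Rps20 (0.57), Rpl17 (0.33) and Rps9 (0.26), with a median of 0.02 for the list. In the knockout 0 of them rose and 4 fell by limma (4 higher and 14 lower at an unadjusted p under 0.05), with a median of -0.10.

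Between genotypes the further assembly genes were also mostly lower in the knockout. Over the 127 genes of these 5 assembly lists, 108 differences were below 0 in saline and 116 with R848, with medians of -0.13 and -0.12. Of all tested genes 54.2% and 58.2% were below 0. The test called 0 of 127 in either comparison by limma (30 in saline and 27 with R848 lower at an unadjusted p under 0.05, and 0 higher). Of all tested genes 12.6% and 8.74% passed that unadjusted threshold in either direction. Averaged over treatments 4 were lower, Rpf2, Gtpbp4, Ddx56 and Dis3, a count of 5 or fewer whose members were named after their values were seen. In that average 1.01% of all tested genes were lower. Cytosolic ribosomal proteins had a median difference of 0.04 in saline and -0.06 with R848.

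Myc and proliferation genes are given beside these results because both are tied to ribosome production. Myc read 7.71, 7.93 and 7.83 in wild type in saline and 7.77, 8.05 and 7.91 with R848, and 7.08, 7.47 and 7.45, then 7.67, 7.34 and 7.77, in the knockout. Saline and R848 overlapped in both genotypes, at changes of 0.09 and 0.26 that were not called. In the knockout Myc was 0.49 lower in saline and 0.32 lower with R848, neither called, and 0.40 lower averaged over treatments (SE 0.09, adjusted p = 0.036, limma). Of 16 proliferation genes, 15 fell with R848 in each genotype, with medians of -0.96 and -1.11, beside 23.6% and 26% of all tested genes that fell. Most of the 42 ribosome assembly genes rose. The median difference between genotypes of the proliferation genes was -0.26 in saline and -0.36 with R848, with 0 called in either by limma (7 and 6 lower at an unadjusted p under 0.05). The part of Myc, of proliferation, of S100a9 and of the dendritic cell markers in the lower levels of the assembly genes was not tested.

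Several members carry snoRNA genes within their own span, and these rows, chosen after other values were seen, are given beside their hosts. Of 10 such rows 8 were bright enough to test. With R848 in wild type 0 of 8 were called by limma (0 at an unadjusted p under 0.05), while 4 of their 5 host genes rose. Of all tested genes 14.6% rose, 23.6% fell and 44.8% passed the unadjusted threshold, so a count of 0 among 8 rows says little. Within Nop58 lie Snord70 (chr1:59691958-59692010) and Snord11 (chr1:59704808-59704870), box C/D RNAs. In wild type they changed by 0.08 (95% interval -0.18 to 0.34) and 0.06 (95% interval -0.18 to 0.30) beside 0.62 for Nop58 (95% interval 0.42 to 0.82). In the knockout Snord110, within Nop56, fell by 0.28 (adjusted p = 0.0278, limma) where Nop56 rose by 0.43. Between genotypes 0 of 8 were called in saline or with R848 by limma (1 and 0 at an unadjusted p under 0.05). Of all tested genes 12.6% and 8.74% passed that unadjusted threshold. The difference between host and snoRNA was not tested.

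**Figure D4:**
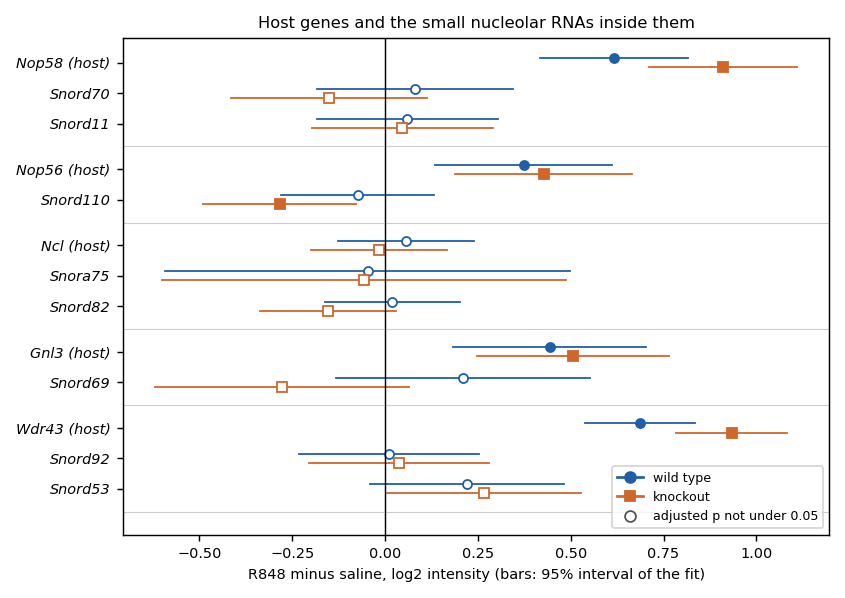
Change with R848 (log2, horizontal axis) of 5 host genes and of the 8 snoRNA rows within them, in wild type (circles) and knockout (squares), with bars for the 95% interval of the fit and open symbols where adjusted p was not under 0.05. The hosts Nop58, Nop56, Gnl3 and Wdr43 lie right of 0 with filled symbols, and the one filled snoRNA symbol is Snord110 in the knockout at -0.28.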

How the data were processed

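The authors deposited log2 values made with Affymetrix Expression Console and RMA, per the submitters' processing notes (versions not given in the sources used here), with array medians between 4.49 and 4.57. RMA brings arrays to nearly one distribution, so a change in total RNA per cell is not visible. The platform table gave 1 symbol to 23521 of 34472 rows, several to 1814 and none to 9137. A gene was tested if it lay above an array's 40th percentile over 1-symbol rows (4.31 to 4.35) on at least 3 arrays, which removed 8101 genes. All 12 arrays entered 1 model with a mean per group (limma 3.58.1, R 4.3.3, lmFit and eBayes), and p-values were adjusted by Benjamini-Hochberg within each contrast at 0.05. The fit was tested on simulated data. Intervals are 95% intervals of single genes, not adjusted for their number, and the number of arrays limits the precision.

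The members and lists were chosen with earlier results of these data known. Array values were given for the 2 members of each role with the largest change with R848 in wild type, for Nop58, and for every member called in a genotype contrast or the interaction, and for each further list the 3 largest called changes were named.

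Replicate numbers were checked by the correlation of residuals of same-numbered arrays. Every pair exceeded 0.1 only between knockout saline and knockout R848 (0.272, 0.172 and 0.275), so that pairing rests on this limit, not on a label. Replicates 1 and 3 also correlated between wild-type saline and R848 (0.252 and 0.23), and replicate 1 between genotypes with R848 (0.328).

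Alternatives covered the filter on dim rows, median centring, cyclic loess, a trended robust spread, array weights, the arrays compared alone, a replicate block, second rows, a stricter threshold, a minimum change and leaving out each array.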

Additional observations from a re-analysis of the deposited data

How the results depend on the processing

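No called gene and no median of the 42 changed direction under the alternatives tried, which took the second row of genes with several. Among differences that were not called some did: on second rows 41 rather than 42 averaged genotype differences were below 0, and after median centring 1 rather than 7 changes with R848 in wild type were below 0. The dimmest rows of Nop56 and Nol11 were outside these alternatives. With R848 they gave -0.29 for Nop56 in the knockout and -0.11 for Nol11 in wild type, against called rises. The same rows gave 0.27 for Nop56 in wild type and 0.08 for Nol11 in the knockout. Of 411 counts and medians recomputed for the 42 genes, 370 stayed within 1.5 times the count given or within 1 SD of the median given, and 41 moved, and of 1692 recomputed values of single called genes 1489 stayed past the threshold and 203 did not. After median centring the median change with R848 was 0.46 in wild type and 0.53 in the knockout, with 0 genes falling in either and 2 lower in the knockout in saline. Cyclic loess gave medians of 0.42 and 0.49, 0 falling in the knockout, 2 lower in saline, and a median genotype difference with R848 of -0.15. Without the dimmest genes by a stricter filter, which left out Rrp1b, 0 fell in wild type and 1 in the knockout, and with array weights 0 fell in the knockout. The fit of only the arrays compared gave 0 lower in saline. At an adjusted p under 0.01, 0 fell with R848 in either genotype, 0 were lower in saline and 4 were lower averaged over treatments. A minimum change of 0.5 left 12 rising and 0 falling in wild type, 11 and 0 in the knockout, 1 lower in saline and 1 averaged. The cause was not tested for any of these beyond the tighter rules themselves. With the replicate block 28 rose in each genotype, 4 were lower in saline, 1 with R848 and 16 averaged, and the further call in wild type was Nop16 (adjusted p = 0.0318, limma). The arrays did not bear out that block between genotypes. Leaving out single arrays gave 0 to 1 falling in wild type (0 without wild-type R848 replicate 3), 0 to 2 falling in the knockout (0 without knockout saline replicate 1 or 3, 1 without any knockout R848 replicate), 0 to 3 lower in saline and 4 to 14 lower averaged over treatments. The knockout replicate block alone, chosen after seeing the data, also gave 28 rising in the knockout. Rrp1b, Wdr12 and Polr1b had the lowest mean levels of the 42, at 5.04, 5.54 and 5.65, above the dim limit of 4.31 to 4.35. Whether low signal compressed their differences was not tested.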
